A study of Mus musculus with 8 samples.

Results

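The genes described here are 9 genes of the fibroblast growth factor (FGF) and ERK pathway, taken by gene symbol: the ligands Fgf3 and Fgf4, the receptors Fgfr1 and Fgfr2, the feedback inhibitors Spry2, Spry4 and Dusp6, and the transcription factors Etv4 and Etv5. All 9 were found in both expression tables of the study, which list 13056 genes for sorted cells and 14319 for an overexpression experiment. RNA was sequenced from 8 samples of mouse embryonic stem cells (ESCs) in 4 groups of 2 replicates. The labels give every group a cross of C57BL/6 (F) with 129/sv (M) as strain and a developmental age of 3.5 days, and all cells grew on gelatin in serum medium with leukemia inhibitory factor.

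The first pair of groups, KLF3-GFP negative and KLF3-GFP positive, came from 1 reporter line. This line carries a CAGGS-driven fusion of Emerald GFP to the N-terminal part of the Krüppel-like factor KLF3, lacking its DNA-binding domain, together with DsRed driven by EF1α. Colonies were picked by DsRed, and 500 cells per sample were sorted by GFP. Because the promoter is constitutive, GFP here reports how much of the fusion protein a cell holds, and not the activity of the Klf3 gene. The second pair, GFP-overexpression-72h and KLF3-overexpression-72h, came from clones of the R26 line, which carries M2rtTA and a Col1a1 FRT site. A codon-optimised Klf3 or GFP was inserted at that site, and doxycycline induced it for 72 hours. The clones were selected on feeder cells. The first comparison asks how ESCs that hold the KLF3-GFP fusion differ from those in which it is not detected. The second asks how gene expression changes when KLF3 is supplied.

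FGF ligands bind receptor tyrosine kinases together with heparan sulfate. The receptors recruit FRS2, GRB2 and SOS, which load RAS with GTP, and RAS activates the kinases RAF, MEK and ERK. Active ERK induces its own brakes, among them the Sprouty proteins and the ERK phosphatase DUSP6, and the ETS factors ETV4 and ETV5, so the transcripts of these genes are widely used as a readout of the pathway. In the blastocyst, FGF4 is made by the epiblast under OCT4 and SOX2, and it directs neighbouring inner cells to the primitive endoderm. FGFR1 is present throughout the inner cell mass, and FGFR2 is known for its expression in the primitive endoderm and trophectoderm. FGF3 is best known from later stages, such as inner ear and tail development.

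Fgf3 and Fgf4 lie side by side and moved in opposite directions in the sorted cells, so the sequence before each start site is shown. On mm10 the deposited coordinates are chr7:144838083-144844436 for Fgf3 (ENSMUSG00000031074) and chr7:144861386-144865243 for Fgf4 (ENSMUSG00000050917). Both are on the plus strand with 16.9 kb between them, and GENCODE M21 annotates 0 other genes in that gap, into which a longer Fgf4 transcript reaches, starting at 144847367. Fgf15 follows 31.3 kb beyond Fgf4. The stretches below, from RefSeq on GRCm38.p6 (mm10), plus strand, are chr7:144838362-144838594 for Fgf3, before the RefSeq start site at 144838612, and chr7:144861136-144861385 for Fgf4, before that at 144861386. The last 17 of the 250 bases before the RefSeq start of Fgf3 lie in a GENCODE exon and are not shown, and the bases printed lie inside the GENCODE span of Fgf3 but in none of its exons. Those of Fgf4 likewise lie inside the span of its longer transcript and outside its exons. Capitals mark the letters CACCC or their reverse complement GGGTG, the core of the CACCC box known as a binding site of Krüppel-like factors.
Fgf3: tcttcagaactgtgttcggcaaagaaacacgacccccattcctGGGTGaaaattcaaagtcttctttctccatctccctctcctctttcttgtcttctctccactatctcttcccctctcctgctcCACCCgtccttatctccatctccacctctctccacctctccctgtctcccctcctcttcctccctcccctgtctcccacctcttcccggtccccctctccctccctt
Fgf4: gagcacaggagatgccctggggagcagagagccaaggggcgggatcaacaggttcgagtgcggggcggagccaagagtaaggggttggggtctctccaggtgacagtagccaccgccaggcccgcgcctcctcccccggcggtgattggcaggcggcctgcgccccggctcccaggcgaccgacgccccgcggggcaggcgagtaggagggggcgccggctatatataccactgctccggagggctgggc

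The Fgf3 sequence holds CACCC 2 times, 1 on each strand, and the Fgf4 sequence holds it 0 times. In windows from 250 bases before to 50 bases after a start site, 57.5% of 32851 RefSeq promoters hold CACCC on either strand, and 25.7% hold it at least 2 times. RefSeq windows were used for 6 of the 9 genes, with 7 windows, as Etv5 has 2. Windows on chromosome 18, where Spry4 lies, were left out. The 50 bases after the start site of Fgfr2 and after the downstream start of Etv5 matched no GENCODE transcript of their gene. CACCC was in 3 of the 7 windows, those of Fgf3, Dusp6 and the downstream start of Etv5. The longer CACACCC, which contains CACCC, was in 1 of them (Dusp6), against 7.95% of all promoters, and the ETS motif CCGGAAG was in 0, against 8.86%. These matches describe letters in a window and no binding.

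Levels are FPKM, fragment counts scaled to transcript length and library size, and each is the authors' mean of 2 replicates. With no value per replicate, neither a test nor an error can be given, and the spread between replicates and the read depth are unknown. Differences are those of log2(FPKM + 1), on which changes at low levels look smaller than they are. A gene was counted as higher or lower where this difference was beyond a 2-fold limit, among genes averaging 1 FPKM or more across the columns of a table, and "rose" and "fell" are kept for such genes. All 9 genes passed that minimum in both experiments. Fgf3 in both, and Fgfr2 in the sorted cells, were under 1 FPKM in the reference column and passed through the other. The experiments used different libraries and are compared only within their own table.

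In KLF3-GFP-positive cells Fgf3 and Fgfr2 rose, while Fgf4, Fgfr1, Dusp6 and Etv5 fell, and Etv4, Spry2 and Spry4 were lower without passing the limit. Of the 9 genes, 2 were thus higher and 4 lower, and over all 9212 genes tested 13.8% were higher and 8.32% lower. The median difference of the 9 genes was -0.99 against 0.03 over all genes tested. After 72 hours of KLF3 overexpression 1 of the 9 genes, Fgf3, was higher and 0 were lower, where 6.60% of 11179 genes were higher and 10.1% lower. The median of the 9 genes was 0.01 there and that of all genes -0.18. The 738 genes higher and 1133 lower in this experiment became 1140 and 713 with median-ratio scaling, and 428 and 1856 when the columns were set to equal sums without ribosomal protein genes, so differences near 0 in this experiment have no settled sign.

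**Figure D1:**
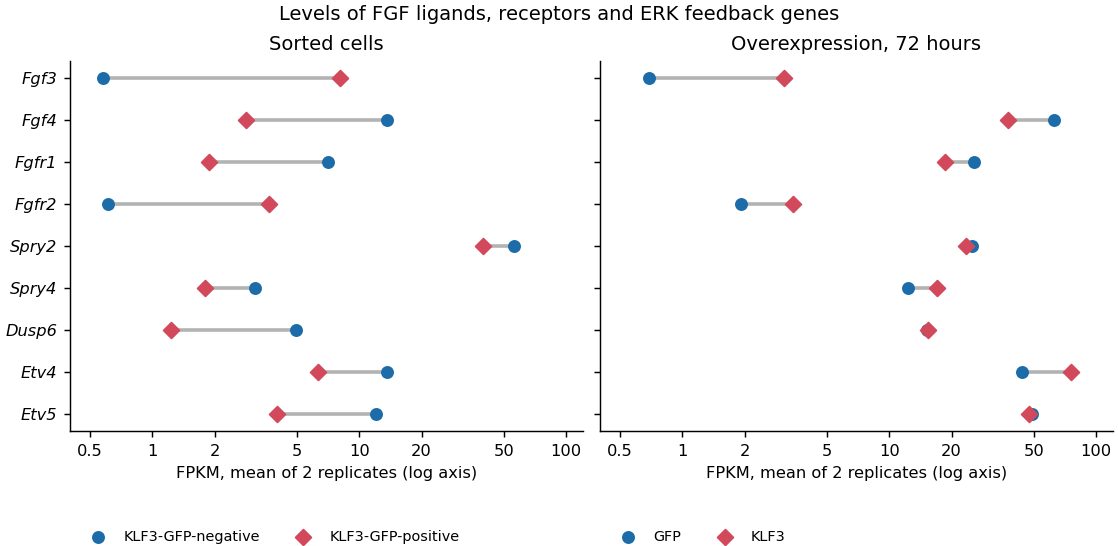
Levels of the 9 genes in FPKM (horizontal log axis), with sorted cells on the left and overexpression on the right. Circles are KLF3-GFP-negative or GFP cells, diamonds KLF3-GFP-positive or KLF3 cells, each the authors' mean of 2 replicates. Fgf3 stands to the right in the diamonds of both panels and Fgf4 to the left, and the long lines of Dusp6 and Etv5 on the left have no counterpart on the right.

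Among the ligands, Fgf3 was at 0.58 FPKM in the negative and 8.04 FPKM in the positive sort, a difference of 2.52 on the log2(FPKM + 1) scale and 13.9-fold in plain FPKM. It was at 0.69 FPKM in GFP and 3.11 FPKM in KLF3 cells, a difference of 1.28 and 4.51-fold in plain FPKM. Both reference columns thus had Fgf3 under 1 FPKM, and the columns of KLF3-GFP-positive and KLF3 cells had it above 3 FPKM. More positive differences than that of Fgf3 were seen for 2.10% of the genes tested in the sorted cells and for 3.07% in the overexpression experiment.

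Fgf4 was the most abundant FGF ligand of the reference cells in both experiments. Between the negative and the positive sort it fell from 13.6 to 2.84 FPKM, which is 4.78-fold lower in plain FPKM and -1.92 on the log2(FPKM + 1) scale. Only 1.15% of the genes tested had a more negative difference. In the overexpression experiment it was at 62.8 FPKM in GFP and 37.4 FPKM in KLF3 cells. That difference of -0.73 did not pass the 2-fold limit, although it did, at -1.07, once a trend of the differences with the genomic span of genes was removed.

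The order of the neighbouring ligands was thus turned in the sorted cells. Fgf4 was 23.4 times Fgf3 in KLF3-GFP-negative cells, and Fgf3 was 2.83 times Fgf4 in KLF3-GFP-positive cells. After KLF3 overexpression Fgf4 stayed the higher ligand, with a ratio to Fgf3 of 91.0 in GFP and 12.01 in KLF3 cells.

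The family holds 22 listed ligands, of which 11 were in the sorted table and 15 in the overexpression table. In the sorted cells 5 of them had a mean of at least 1 FPKM, of which 2 rose and 3 fell. As Fgf3, Fgf10 and Fgf15 reached that mean through 1 column alone, the count of 5 is in part set by the minimum. Among all genes tested in these cells, 13.8% rose and 8.32% fell. Besides Fgf3 and Fgf4, Fgf17, of the FGF8 subfamily, fell from 12.5 to 1.40 FPKM (-2.49). Fgf10, which acts through FGFR2 in budding organs, rose from 0.15 to 4.43 FPKM (2.24). Fgf15, an endocrine FGF, fell from 2.11 to 0.38 FPKM (-1.17). The summed level of all listed ligands was 31.3 FPKM in KLF3-GFP-negative cells against 18.6 FPKM in KLF3-GFP-positive ones. Fgf4 made up 43.5% and 15.3% of these sums, Fgf17 40.1% and 7.52%, Fgf3 1.86% and 43.2%, and Fgf10 0.48% and 23.8%. The ligands most abundant in the negative cells were thus replaced in the sum by Fgf3 and Fgf10.

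In the overexpression experiment, 6 ligands had a mean of at least 1 FPKM and only Fgf3 passed the limit. With the span trend removed, 2 ligands were higher and 1 lower. Among all genes tested in this experiment, 6.60% rose and 10.1% fell. Fgf10 was at 1.26 and 2.31 FPKM in GFP and KLF3 cells, Fgf15 at 4.97 and 3.68 FPKM, and Fgf1 at 1.27 and 0.83 FPKM. The ligand sum was 92.1 and 66.5 FPKM. Fgf4 kept the largest share, with 68.2% in GFP and 56.2% in KLF3 cells, and Fgf3 had 0.749% and 4.68%.

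**Figure D2:**
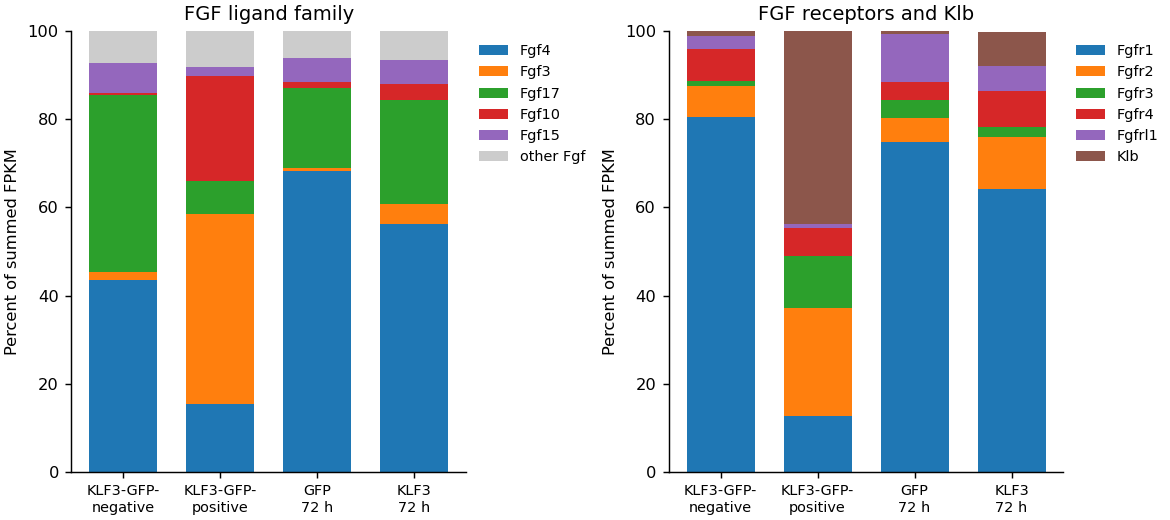
Share of each gene in the summed FPKM of the FGF ligand family (left) and of the FGF receptors with Klb (right), in percent, in each of the 4 groups. Fgf4 and Fgf17 fill most of the bar of KLF3-GFP-negative cells, Fgf3 and Fgf10 most of that of KLF3-GFP-positive cells, and Fgfr1 gives way to Klb and Fgfr2 in the receptors of the latter.

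Among the receptors, Fgfr1 (ENSMUSG00000031565, chr8:25513654-25575714) fell from 7.04 to 1.87 FPKM between the negative and the positive sort, a difference of -1.49. It was at 25.6 FPKM in GFP and 18.6 FPKM in KLF3 cells, a difference of -0.44 that was within the limit and became 0.04 with the trend on genomic span removed. An antisense gene, Gm16159, shares 164 bases with the exons of Fgfr1. The libraries of the sorted cells do not mark strand, so reads there cannot be assigned to one of these genes.

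Fgfr2 (ENSMUSG00000030849) was at 0.61 FPKM in KLF3-GFP-negative cells and reached 3.66 FPKM in the positive sort. This rise, 6.00-fold in plain FPKM and 1.53 on the log2(FPKM + 1) scale, was exceeded by 6.85% of the genes tested. In the overexpression experiment it was at 1.92 FPKM in GFP and 3.42 FPKM in KLF3 cells, a difference of 0.60 within the limit. The deposited locus, chr7:130162451-133123350, includes a long annotated transcript and spans 30 other coding genes, and 314 of the 10328 exon bases of Fgfr2 are shared with Ctbp2, a corepressor gene. Ctbp2 was at 16.7 and 10.6 FPKM in KLF3-GFP-negative and KLF3-GFP-positive cells and at 63.4 and 51.0 FPKM in GFP and KLF3 cells. How reads of the shared bases were assigned was not tested.

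Fgfr1 was 11.5 times Fgfr2 in KLF3-GFP-negative cells, and Fgfr2 was 1.96 times Fgfr1 in KLF3-GFP-positive cells. In the overexpression experiment Fgfr1 stayed above Fgfr2, at 13.3 times in GFP and 5.44 times in KLF3 cells. The shift from Fgf4 and Fgfr1 towards Fgf3 and Fgfr2 thus turned the order of both pairs in the sorted cells and of 0 pairs after overexpression.

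The other listed receptors and co-receptors were mostly low. Klb, the β-Klotho co-receptor of endocrine FGFs, rose from 0.10 FPKM, the lowest value in the table, to 6.52 FPKM in KLF3-GFP-positive cells (2.77), and from 0.24 to 2.27 FPKM on KLF3 overexpression (1.40). In that experiment Fgfrl1, a decoy receptor, was at 3.71 and 1.67 FPKM and Fgfr3 at 1.39 and 0.64 FPKM. Both were within the limit with the pseudocount of 1, but 2.22-fold and 2.17-fold lower in plain FPKM, and 2 receptor genes were counted as lower with a pseudocount or floor of 0.1. Of the receptor sum, which was 8.75 FPKM in the negative and 14.9 FPKM in the positive sort, Fgfr1 made up 80.5% and 12.6%, Fgfr2 6.97% and 24.6%, and Klb 1.14% and 43.8%.

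Of the feedback inhibitors, Dusp6 fell in the sorted cells, Spry2 and Spry4 were lower there without passing the limit, and none of the 3 passed it after overexpression. Dusp6 (ENSMUSG00000019960, chr10:99263231-99267488), which dephosphorylates ERK in the cytoplasm, fell from 4.97 to 1.23 FPKM with KLF3-GFP (-1.42). In GFP and KLF3 cells it was at 15.2 and 15.4 FPKM, a difference of 0.01 whose sign changed in 2 of 6 alternative calculations. The same gene thus differed 4.04-fold between the sorted columns and by 1.01-fold between the overexpression columns.

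Spry2 and Spry4 encode Sprouty proteins, which restrain signalling between receptor and RAS. Spry2 (ENSMUSG00000022114, chr14:105891949-105896819) was the most abundant of the 9 genes in the sorted cells, at 55.8 FPKM without and 39.7 FPKM with KLF3-GFP. It was at 25.2 and 23.6 FPKM in GFP and KLF3 cells, a difference of -0.09 whose sign also changed in 2 of 6 alternatives. Spry4 (ENSMUSG00000024427, chr18:38586268-38601268) was at 3.12 and 1.80 FPKM in the sorted cells (-0.56) and at 12.3 and 16.9 FPKM in GFP and KLF3 cells (0.44). Neither gene passed the limit in either experiment.

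Of 14 listed feedback genes, 10 were tested in the sorted cells, of which 1 rose and 2 fell, Dusp6 among them. The count that fell was 3 with a floor of 0.1 and 1 with a minimum of 5 FPKM. Over all genes tested there, 13.8% rose and 8.32% fell. Dusp4, a nuclear phosphatase of ERK, rose from 1.44 to 10.5 FPKM (2.23), opposite to Dusp6. Dusp1, an immediate early phosphatase that prefers p38 and JNK, fell from 18.04 to 4.97 FPKM (-1.67). Dusp9 was at 11.3 and 19.8 FPKM. After overexpression, where 6.60% of all genes rose and 10.1% fell, 0 of 12 feedback genes rose and 1 fell. That gene was Il17rd, which encodes the FGF antagonist SEF, from 3.52 to 0.91 FPKM (-1.24), and the count was 0 with the span trend removed or a minimum of 5 FPKM. Dusp4 was at 5.58 and 9.01 FPKM there, and Dusp9 at 40.5 and 59.2 FPKM.

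Etv4 and Etv5, ETS transcription factors of the PEA3 subfamily, were at near-equal levels in KLF3-GFP-negative cells. Etv5 (ENSMUSG00000013089, chr16:22381309-22439719) fell from 12.01 to 4.01 FPKM in KLF3-GFP-positive cells (-1.38). Etv4 (ENSMUSG00000017724, chr11:101769742-101785371) was at 13.6 and 6.35 FPKM, a ratio of 0.466, and its difference of -0.99 lay just inside the limit. It passed in all 6 alternative calculations, at -1.01 to -1.15, so the count of 4 genes lower rests on the pseudocount and scaling for this gene.

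In the overexpression experiment the pair parted. Etv4 was at 44.0 FPKM in GFP and 75.9 FPKM in KLF3 cells, a difference of 0.77 that was exceeded by 11.1% of the genes tested and did not pass the limit. Etv5 was at 48.8 and 47.4 FPKM, a difference of -0.04 whose sign changed in 2 of 6 alternatives. Relative to the median of all genes, these differences were 0.95 for Etv4 and 0.14 for Etv5.

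Of 17 listed ETS and immediate early factors, Etv4 and Etv5 included, 12 were tested in the sorted cells, of which 3 rose and 4 fell. Across the alternatives these counts ran from 2 to 4 and from 3 to 5. Over all genes tested there, 13.8% rose and 8.32% fell. Ets1 rose from 0.10 FPKM, the smallest value that is listed, to 4.72 FPKM (2.38), Ier3 rose from 4.35 to 13.1 FPKM (1.40), and Myc fell from 8.47 to 1.62 FPKM (-1.85). After overexpression 3 of 14 rose and 1 fell, against 6.60% and 10.1% of all genes. Over the alternatives, 2 to 5 of the listed factors were higher and 0 to 2 lower. Myc rose there, from 4.54 to 16.9 FPKM (1.69), as did Fosl1, a partner of JUN, from 0.14 to 2.82 FPKM (1.74), while Elk1 fell from 7.71 to 2.22 FPKM (-1.44). Myc, which ERK is known to stabilise and induce, was thus on opposite sides in the experiments.

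**Figure D3:**
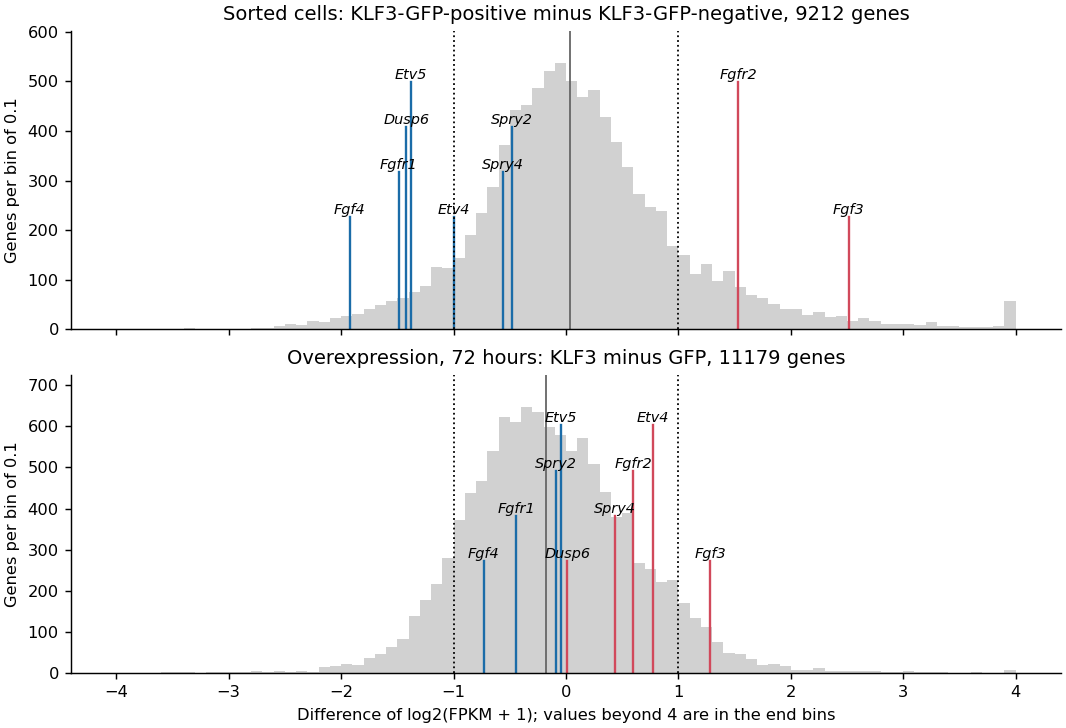
Distribution of the log2(FPKM + 1) differences of all genes tested (grey, genes per bin of 0.1), with the 9 genes as vertical lines, red where positive and blue where negative. Dotted lines are the 2-fold limit and the grey line is the median of all genes. The 4 genes Fgf4, Fgfr1, Dusp6 and Etv5 lie left of the limit in the sorted cells and none does after overexpression.

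Set side by side, the 9 genes fell into 3 patterns of sign. Fgf3 and Fgfr2 were positive in both experiments, and Fgf4, Fgfr1, Spry2 and Etv5 were negative in both, of which Fgfr1, Spry2 and Etv5 changed sign under some alternative in the overexpression experiment. Spry4, Dusp6 and Etv4 were negative in the sorted cells and positive after overexpression, with Dusp6 near 0. The experiments share no samples, but the cells and libraries differ, and the size of the difference between them was not tested.

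The order of the levels within a group also differed. In KLF3-GFP-negative cells Spry2 led, followed by Etv4, Fgf4 and Etv5, which were within 12.01 to 13.6 FPKM of each other, and Fgfr2 and Fgf3 stood last. In KLF3-GFP-positive cells Spry2 still led, Fgf3 was next and Dusp6 last. In GFP cells Fgf4 led and Etv5 and Etv4 followed. In KLF3 cells Etv4 led, with Etv5 and Fgf4 after it, and Fgfr2 and Fgf3 were last in both groups. Without replicate values, neighbours in these orders cannot be told to differ.

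Between receptor and ERK, 19 of 24 listed adaptor, RAS and kinase genes were tested in the sorted cells, of which 0 rose and 1 fell, where 13.8% and 8.32% of all genes did. Frs3, an adaptor bound by FGF receptors, fell from 3.91 to 1.32 FPKM (-1.08), and Rps6ka1, an ERK-activated kinase, was at 13.5 and 27.5 FPKM and Hras at 39.7 and 76.4 FPKM. After overexpression 2 of 24 rose and 3 fell, against 6.60% and 10.1% of all genes. The 3 became 0 with the span trend removed, 1 with a minimum of 5 FPKM, 5 with a pseudocount or floor of 0.1, and 6 without ribosomal protein genes. Hras rose from 36.6 to 104.0 FPKM (1.48), while Rasa1, a RAS GTPase-activating protein, fell from 18.2 to 6.76 FPKM (-1.31) and Frs2, the main FGF receptor adaptor, from 4.32 to 1.17 FPKM (-1.29).

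Heparan sulfate is the co-factor of FGF binding. Of 11 of its genes tested in the sorted cells 2 rose and 0 fell, against 13.8% and 8.32% of all genes. These were the core proteins Gpc3, from 4.15 to 49.4 FPKM (3.29), and Sdc4, from 240.0 to 1270.0 FPKM (2.40), and Gpc4 was at 2.32 and 4.97 FPKM. After overexpression 0 of 16 rose and 2 fell, against 6.60% and 10.1% of all genes. These encode enzymes of heparan sulfate modification: Ndst1, from 1.88 to 0.21 FPKM (-1.25), and Glce, from 5.11 to 1.92 FPKM (-1.07). The count of 2 was 0 with the span trend removed or a minimum of 5 FPKM, and 1 with median-ratio scaling or quantile normalization. Sdc2 was at 5.15 and 2.36 FPKM. Over all listed pathway genes without the 9, 8 of 51 tested rose and 7 fell in the sorted cells, with a median of 0.28, and 6 of 69 rose and 7 fell after overexpression, with a median of -0.31. These are 15.7% and 13.7% of the genes tested in the sorted cells and 8.70% and 10.1% after overexpression, beside 13.8% and 8.32%, and 6.60% and 10.1%, of all genes.

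**Figure D4:**
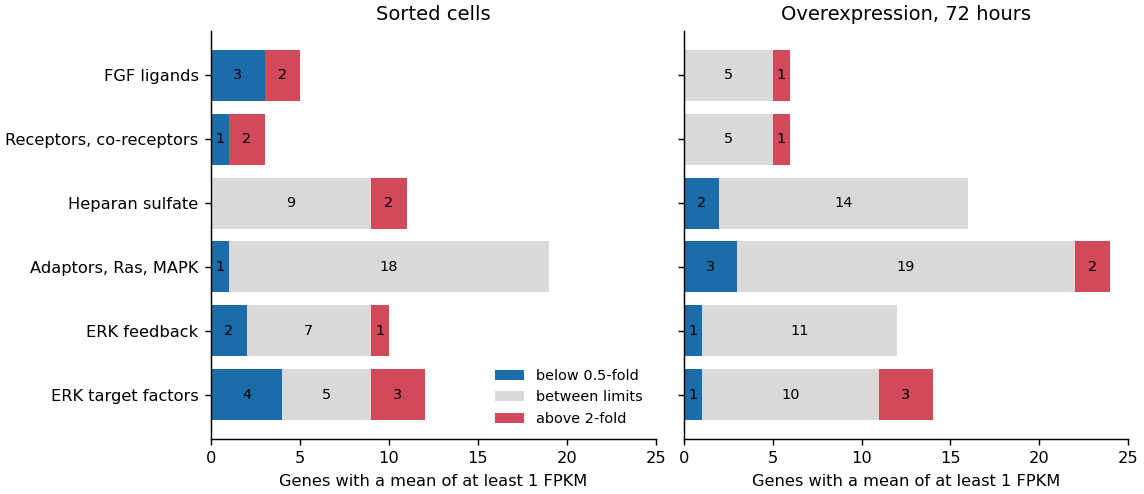
Number of genes with an average of 1 FPKM or more in each pathway list (horizontal axis), divided into those above 2-fold (red), below 0.5-fold (blue) and between the limits (grey), for sorted cells (left) and overexpression (right). In the sorted cells the 5 ligands and 3 receptors or co-receptors tested passed the limit, and 1 of 19 adaptor, RAS and kinase genes did. Fgf3, Fgf10, Fgf15, Fgfr2 and Klb reached the minimum through 1 column alone, which in part sets the ligand and receptor counts. Among all genes tested in the sorted cells, 13.8% were above 2-fold and 8.32% below 0.5-fold.

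Markers of other cell types moved with these differences. For comparison, 13.8% of all genes tested rose and 8.32% fell in the sorted cells. After overexpression 6.60% of all genes tested rose and 10.1% fell. Of 16 listed primitive endoderm markers 15 were tested and all 15 rose in both experiments, their summed level being 61.1 and 2057 FPKM in KLF3-GFP-negative and KLF3-GFP-positive cells and 253 and 1003 FPKM in GFP and KLF3 cells. In KLF3-GFP-negative cells Cubn, Foxa2 and Hnf4a stood at the smallest value listed. There, Sox7, Pdgfra, Dab2, Foxa2, Col4a2, Lama1 and Cubn were under 1 FPKM and passed the minimum through the positive column alone. Sox7, Pdgfra and Foxa2 did so through the KLF3 column after overexpression. The primitive endoderm counts are thus in part set by the minimum. Of 13 naive pluripotency markers tested in the sorted cells 1 rose and 7 fell (sum 592 and 316 FPKM), and after overexpression 0 of 14 rose and 6 fell (sum 2142 and 1703 FPKM). Trophectoderm markers summed to 39.9 and 399 FPKM in the sorted cells, with 3 of 6 higher and 1 lower. In GFP and KLF3 cells they summed to 110 and 558 FPKM, with 3 of 9 higher and 0 lower. The keratins Krt8 and Krt18 made up most of the larger sum in both experiments. Krt8 was at 18.3 and 206 FPKM in the sorted cells and at 26.3 and 176 FPKM in GFP and KLF3 cells. Krt18 was at 12.7 and 183 FPKM and at 36.6 and 340 FPKM. Ascl2 fell in the sorted cells, from 2.73 to 0.81 FPKM. Cdx2 was at the lowest value in both reference columns, and at 0.57 FPKM in KLF3-GFP-positive and 0.60 FPKM in KLF3 cells. Formative epiblast markers had 1 higher and 2 lower of 5 in the sorted cells (sum 666 and 268 FPKM). After overexpression 1 was higher and 1 lower of 7 (sum 255 and 480 FPKM). Utf1 made up most of these sums, at 609 and 225 FPKM in the sorted cells and 204 and 395 FPKM in GFP and KLF3 cells. Dnmt3b went the other way in the sorted cells, from 6.15 to 20.4 FPKM. Of the fibroblast and feeder markers 2 of 2 tested fell in the sorted cells (sum 19.0 and 7.50 FPKM), and 9 of the 14, Col1a1, Col3a1, Postn, Dcn and Lum among them, are not listed in that table. After overexpression 1 of 5 was higher (sum 71.4 and 139 FPKM). The part of any of these cell types in the differences of the 9 genes was not tested, and in bulk samples fewer cells of a type and less RNA per cell cannot be told apart.

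Some facts of the tables bear on these values. Klf3 itself was at 107 and 122 FPKM in KLF3-GFP-negative and KLF3-GFP-positive cells and at 58.7 and 47.8 FPKM in GFP and KLF3 cells. Reads from the Klf3 part of the fusion may be counted in both sorted groups, which was not tested. The codon-optimised transgene of the KLF3 cells differs in sequence, so these values do not check the labels. Ribosomal protein genes took 30.6% and 26.3% of the summed FPKM in the sorted cells and 28.9% and 38.9% in the overexpression experiment. Of 5 genes on chromosome Y in the overexpression table, 3 were at the lowest value in KLF3 cells and 0 in GFP cells, and Eif2s3y was at 30.9 and 1.67 FPKM in GFP and KLF3 cells. Erdr1, the remaining gene, was at 78.6 and 246 FPKM, so that the sum over the 5 genes was 117 and 248 FPKM. The GFP and KLF3 lines are separate clones, so clone and transgene cannot be told apart in that experiment. In the sorted cells 0 of 4 such genes were at the lowest value in either group.

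By the closeness of the differences in both experiments, over 8887 genes tested in both, the genes most like Fgf3 were Pdzd3 (distance 0.0084), Csrp1 (0.04) and Abhd5 (0.12). Pdzd3 differed by 2.51 in the sorted cells and by 1.28 after overexpression, where Fgf3 had 2.52 and 1.28. Those most like Fgf4 were Orc2 (0.08), Pacsin1 (0.11) and Dppa3 (0.13), a maternal-effect gene of naive ESCs that differed by -1.90 and -0.61. The distance is Euclidean over 2 differences of log2(FPKM + 1), so it rests on 4 means alone.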

How the data were processed

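RNA of sorted cells was made into libraries by Smart-seq2, and that of overexpressing cells by poly(A) selection with a directional kit. Reads were aligned to mm10 with STAR (2.6.0) and quantified with Cufflinks (2.2.1), per the submitters' processing notes. The authors deposited FPKM values, 1 mean of 2 replicates per group, with 2 decimals and a lowest value of 0.1, so depth and replicate spread are unknown, and the precision cannot be given. No deposited column was left out. For the overexpression experiment, 22 gene symbols had been turned into dates, none of them a gene named here.

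Rows were taken by symbol. Only genes averaging 1 FPKM or more across the columns of a table were counted, after adding a pseudocount of 1, with limits of 2 and 0.5 on the fold, and no test was made. The 9 genes, the pathway and the marker lists were chosen with earlier results of these data known. Named beside the 9 genes were the 3 genes of each pathway list with the largest difference in each experiment, and the 3 genes closest to Fgf3 and Fgf4. Ctbp2, Klf3, Eif2s3y and Erdr1 were added after their values were seen. The calculation was tested on simulated data. Changes were put there only into genes of higher level, so calls that rest on low reference values were not covered. Python 3.11.15, numpy 2.4.6, pandas 2.3.3, statsmodels 0.14.6 and matplotlib 3.10.9 were used. The 8 alternatives were another pseudocount (0.1), a floor of 0.1 in its place, no minimum, a minimum of 5 FPKM, 3 other scalings and removal of a trend with genomic span (lowess, fraction 0.3).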

Additional observations from a re-analysis of the deposited data

How the results depend on the processing

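Of 108 recomputed differences of the 9 genes, 94 kept their sign and their side of the limit. Of the others, 7 passed the limit where they had not: Etv4 in the sorted cells under all 6 alternatives, and Fgf4 in the overexpression experiment, at -1.07, with the span trend removed. A further 7, all within the limit in the overexpression experiment, changed sign (2 each of Dusp6, Etv5 and Spry2, and 1 of Fgfr1). With a minimum of 5 FPKM, which tests fewer genes, the counts of the 9 genes were 0 higher and 2 lower in the sorted cells and 0 higher after overexpression, and over all genes 840 were higher and 417 lower in the sorted cells and 734 lower after overexpression. The other counts of the 9 genes and of all genes that moved by over 1.5 times were all of the overexpression experiment. With a pseudocount of 0.1 there were 1819 genes lower, and with a floor of 0.1 there were 1912. Median-ratio scaling gave 1140 higher and 713 lower, quantile normalization 711 lower, equal sums without ribosomal protein genes 428 higher and 1856 lower, and removal of the span trend 587 lower, with 1 of the 9 genes, Fgf4, among them. The cause of these shifts was not tested. The median over all genes of the sorted cells was -0.09 with quantile normalization or without ribosomal protein genes, and that of the overexpression experiment was -0.01 with median-ratio scaling and -0.37 without ribosomal protein genes. Of 192 counts over the pathway lists 33 moved. Leaving out replicates was not possible. No paired analysis was possible because the tables hold 1 mean per group. Depth is unknown, and genes such as Fgf3 and Fgfr2 rest on reference values under 2 FPKM.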
